A study of Homo sapiens with 2 samples.

Results

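The S100 proteins and the annexins are 2 families of calcium-binding proteins. Their 23 rows, 13 S100 symbols and 10 annexins, were taken by symbol from a deposited count table of 17249 rows. The pattern also took S100PBP, whose product binds S100P and is not itself an S100 protein. Other genes of these families, such as S100A8, S100A9, S100B, ANXA8 and ANXA13, had no row in the table used, so they were not analysed here. RNA was poly(A)-selected and sequenced, and each of the 2 groups had 1 library of counts, labelled as the human prostate cancer cell line DU145, which was first grown from a brain metastasis of an epithelial tumour. The si-P53RRA library came from cells given 200 pmol of an siRNA that targets P53RRA, a long noncoding RNA of the gene LINC00472. The medium was changed at 4 h and the cells were grown for a further 48 h. The other library, called control here, has a data column named for a negative-control RNA, and its sample label gives only the cell line. The study was made to ask whether P53RRA promotes ferroptosis, an iron-dependent cell death.

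With 1 library per group there was no test between the conditions and no difference has a replicate check. The siRNA and any other difference between these cultures cannot be told apart. The intervals given in parentheses are exact 95% intervals for counting error only. "Higher" and "lower" describe the si-P53RRA library relative to the control library. A gene was called when its log2(CPM + 0.5), where CPM is counts per 1000000 after scaling between libraries, differed by at least 1, which is 2-fold. Such calls were made for the 13532 genes that reached 1 CPM in a library. The si-P53RRA library held 11942362 counts and the control library 16030207.

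S100 proteins are small proteins with a pair of EF-hand calcium-binding loops that mostly act as dimers. Calcium opens the dimer, which then docks onto target proteins inside the cell, and several members are also released and bind surface receptors. Annexins bind acidic phospholipids of membranes when calcium is present and take part in membrane repair, endocytosis and exocytosis. The families meet in known binding pairs: S100A10 with annexin A2, S100A11 with annexin A1 and S100A6 with annexin A11.

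The libraries stood apart well beyond these families, so their general state is given before the members. LINC00472 had 6 counts in the si-P53RRA library and 105 in the control library, 11.9-fold lower (5.29 to 33.2). At least 2-fold differences were found for 42.9% of all tested genes. Of 10 epithelial markers that passed the filter, 8 were higher and none lower. Of these, 5 passed through the si-P53RRA library alone and so had to be higher. The 15 with a row summed to 2061 CPM in the si-P53RRA library and 400.2 CPM in the control library. The keratins KRT8 and KRT18 were present in both libraries, but the E-cadherin gene CDH1 had 7 counts in the si-P53RRA library and 2 in the control library, and EPCAM had 50 counts in the si-P53RRA library and 0 in the control library. Of 16 mesenchymal or fibroblast markers, none was higher and 13 were lower, 4 of them through a level of 1 CPM or more in the control library alone, with a summed level of 2641 CPM in the si-P53RRA library and 16330 CPM in the control library. THY1 and DCN were at 0 in the si-P53RRA library. The part of these marker differences in the values below was not tested.

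Of the 23 members, 21 reached 1 CPM in a library. Of these, 5 were higher by 2-fold or more and 6 were lower by 2-fold or more. Over all tested genes 19.7% were higher and 23.2% lower by as much, so the share of members called, in either direction, was not far from that of genes in general. The called members S100P, S100A14 and ANXA3, 3 in all, passed the filter through 1 library alone and so had to differ. Among 11 S100 symbols that passed, 2 were higher and 2 lower, and their median log2 change was −0.50, or −0.21 without S100PBP. Among 10 annexins, 3 were higher and 4 lower, and the median was −0.33. The median over all tested genes was −0.06. Of the 12 members that averaged at least 50 CPM, 2 were higher and 4 lower, beside 18.0% and 13.0% of all genes at that level. S100A1, with 5 counts in the si-P53RRA library and 9 in the control library, and S100A5, with 4 counts in the si-P53RRA library and 0 in the control library, stayed under the filter.

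**Figure D1:**
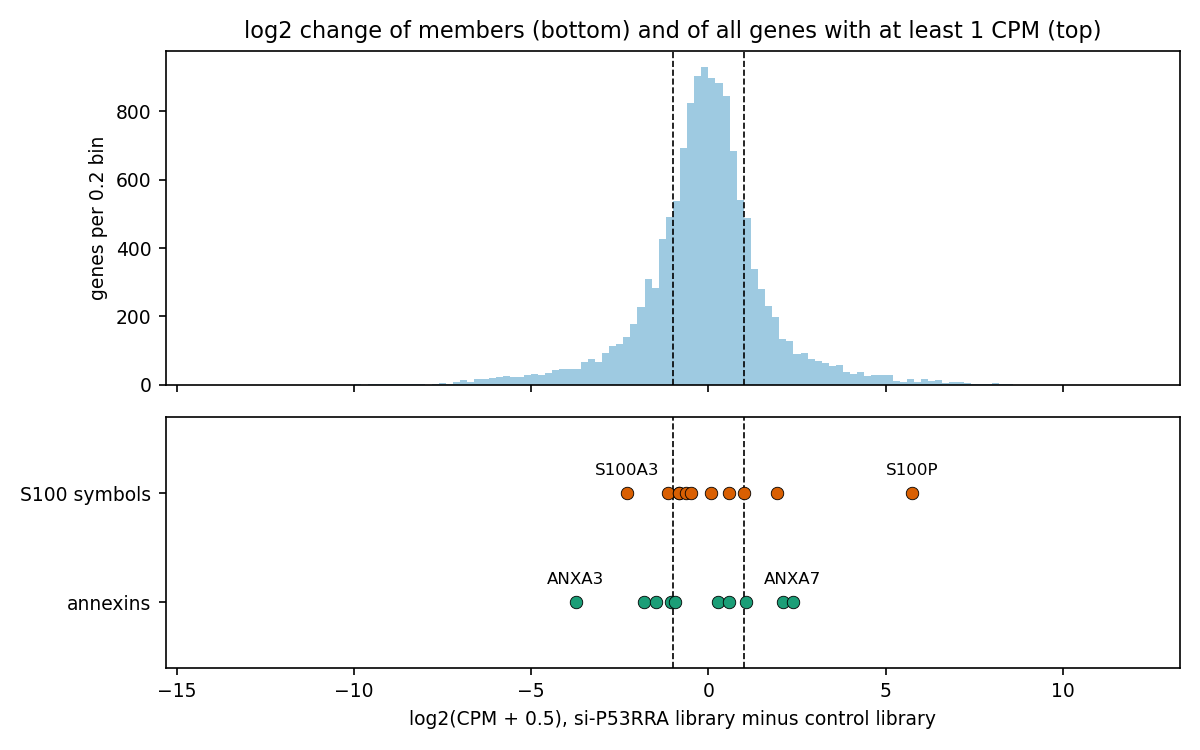
log2 change between the libraries for all genes that reached 1 CPM (top, genes per bin) and for the S100 symbols and annexins among them (bottom, 1 point per gene), with dashed lines at 2-fold. S100P at 5.76 and ANXA3 at −3.74 lie farthest out among the members, and most S100 symbols lie between the lines. S100P and ANXA3 each passed the filter through 1 library alone, so their direction was fixed by it.

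Of the called annexins, ANXA1, ANXA2, ANXA3 and ANXA5 were lower and ANXA7, ANXA10 and ANXA11 were higher. ANXA2, which links membranes to actin and forms a surface complex with S100A10, had 19266 counts in the si-P53RRA library and 79351 in the control library. On the CPM scale that is 1689 against 4729, 2.80-fold lower (2.76 to 2.84). Per kilobase of transcript, ANXA2 ranked 72 of 14548 coding genes in the si-P53RRA library and 8 in the control library. ANXA2 shares 35.3% of the 50-base stretches of its longest coding transcript with the processed pseudogene ANXA2P2, whose own row held 0 counts in the si-P53RRA library and 2 in the control library. Those rows show few reads assigned to the copy. ANXA5, which binds phosphatidylserine and is used as a stain for dying cells, had 3958 counts in the si-P53RRA library and 20339 in the control library, 3.49-fold lower (3.38 to 3.62). ANXA1, a glucocorticoid-induced protein that signals through formyl peptide receptors, had 2004 counts in the si-P53RRA library and 6151 in the control library, 2.09-fold lower (1.98 to 2.20). When log2 changes were corrected for the GC content and length of transcripts, ANXA1 was at −0.84, within 2-fold. ANXA3 had 11 counts in the si-P53RRA library and 319 in the control library, 19.7-fold lower (10.9 to 39.9). ANXA3 thus had the widest difference of the annexins, at a level far under those of ANXA2 and ANXA5. It passed the filter through the control library alone, so its direction was fixed by the filter.

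Of the higher annexins, ANXA7 and ANXA11 carry long N-terminal tails unlike the short ones of most annexins. ANXA7, or synexin, first described in the fusion of secretory granules, had 9556 counts in the si-P53RRA library and 2704 in the control library, which made it 5.20-fold higher (4.98 to 5.43). ANXA11, which tethers RNA granules to lysosomes, had 15704 counts in the si-P53RRA library and 10968 in the control library, which made it 2.11-fold higher (2.06 to 2.16). That value sat close to the line, and its log2 change was 0.94 when libraries were scaled on total counts. ANXA10, an annexin known from stomach epithelium, had 368 counts in the si-P53RRA library and 120 in the control library, which made it 4.51-fold higher (3.66 to 5.59). The 3 annexins within 2-fold went both ways. ANXA4, an epithelial annexin, had 319 counts in the si-P53RRA library and 903 in the control library, 1.92-fold lower (1.69 to 2.19). ANXA6, the annexin with a doubled core, had 2077 counts in the si-P53RRA library and 2522 in the control library, which made it 1.21-fold higher (1.14 to 1.28). ANXA9 had 24 counts in the si-P53RRA library and 21 in the control library, a ratio of 1.68 (0.897 to 3.17) whose counting interval includes 1.

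With the most abundant annexin lower and others higher, the make-up of the family differed between the libraries. All annexin rows together held 0.446% of the counts of the si-P53RRA library (0.442% to 0.450%, Wilson) and 0.770% of those of the control library (0.766% to 0.774%). On a per-length scale, counts per 1000 bases of a chosen transcript per 1000000, ANXA2 made up 47.5% of the summed annexin level in the si-P53RRA library and 71.0% in the control library. The share of ANXA11 was 21.9% in the si-P53RRA library and 5.55% in the control library, and that of ANXA7 was 13.8% in the si-P53RRA library and 1.42% in the control library. ANXA5 made up 7.94% in the si-P53RRA library and 14.8% in the control library.

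**Figure D2:**
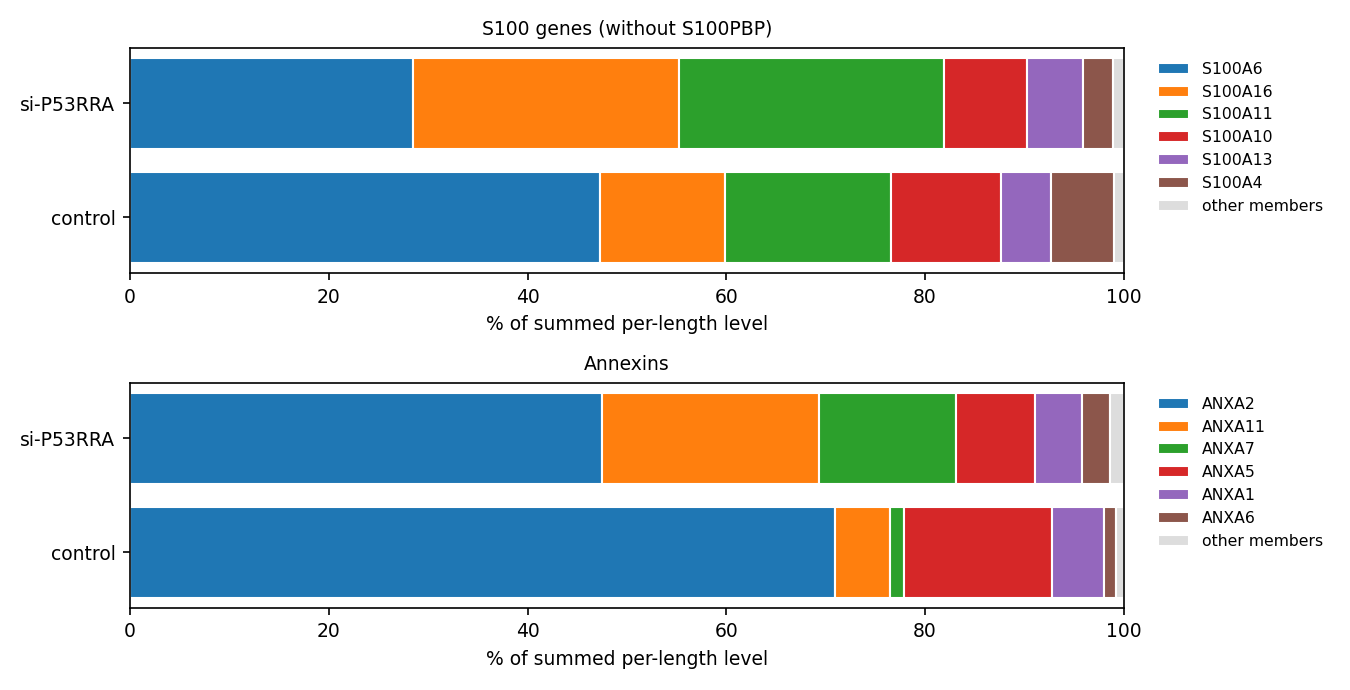
Composition of the S100 genes (top) and the annexins (bottom) as the percentage of the summed per-length level in the si-P53RRA and control libraries. ANXA2 fills 47.5% of the annexin bar in the si-P53RRA library and 71.0% in the control library, and S100A6 fills 28.5% of the S100 bar in the si-P53RRA library and 47.3% in the control library.

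Among the S100 genes, S100A6, S100A10, S100A11, S100A13 and S100A16 were within 2-fold. S100A6, calcyclin, a gene linked to proliferating cells, had 7647 counts in the si-P53RRA library and 19905 in the control library, 1.77-fold lower (1.72 to 1.82). Its log2 change was −0.82, and −1.60 with that correction, which places it beyond 2-fold. S100A10, the member that no longer binds calcium, had 4036 counts in the si-P53RRA library and 8415 in the control library, 1.42-fold lower (1.37 to 1.47). S100A11 had 6397 counts (560.7 CPM) in the si-P53RRA library and 6256 counts (372.8 CPM) in the control library, a log2 change of 0.59. With the same correction its log2 change turned to −0.05. S100A16, a widely expressed member, had 10297 counts in the si-P53RRA library and 7581 in the control library, which made it 2.00-fold higher (1.94 to 2.06). It lay at the 2-fold line, just within it here and just beyond it, at a log2 change of 1.01, with median-ratio scaling. With the correction for transcripts its log2 change was 0.54. S100A13, a carrier in the release of the growth factor FGF1, had 1571 counts in the si-P53RRA library and 2189 in the control library, a ratio of 1.06 (0.989 to 1.13). S100A13 was therefore not distinguishable between the libraries at this depth. Its longest coding transcript shares 60.9% of its 50-base stretches with another annotated locus, AL162258.1, so its count is uncertain.

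The lower S100 genes were S100A3 and S100A4. S100A4, known as metastasin and as a marker of fibroblasts and of motile carcinoma cells, had 697 counts in the si-P53RRA library and 2286 in the control library, 2.23-fold lower (2.05 to 2.43). S100A3, best known from the hair cuticle, had 28 counts in the si-P53RRA library and 234 in the control library, 5.68-fold lower (3.83 to 8.74). S100A2, a gene of basal epithelial cells, had 91 counts in the si-P53RRA library and 244 in the control library, 1.82-fold lower (1.43 to 2.35). Its log2 change passed to the far side of the 2-fold line, at −1.28, after the correction. Beside S100A4, 13 of 16 mesenchymal and fibroblast markers were lower, and their part in its value was not tested. S100PBP had 246 counts in the si-P53RRA library and 561 in the control library, 1.55-fold lower (1.33 to 1.81).

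Among the members that passed the filter, S100P and S100A14 had counts in the si-P53RRA library alone. S100P, a member first found in placenta and often present in carcinomas, had 303 counts (26.6 CPM) in the si-P53RRA library and 0 in the control library, at least 149-fold higher against a floor of 3 counts in the control library. S100A14, an epithelial member, had 16 counts in the si-P53RRA library and 0 in the control library, at least 7.84-fold higher, and with a pseudocount of 2.5 CPM its log2 change was 0.64. A count of 0 allows up to 3 counts, or 0.179 CPM, in the control library. Both genes passed the filter through the si-P53RRA library alone, so their direction was fixed by the filter. ANXA4 and S100A2, which are also known from epithelial cells, had log2 changes of −0.93 and −0.83. S100P lies on chromosome 4, apart from the cluster that holds the S100A genes.

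**Figure D3:**
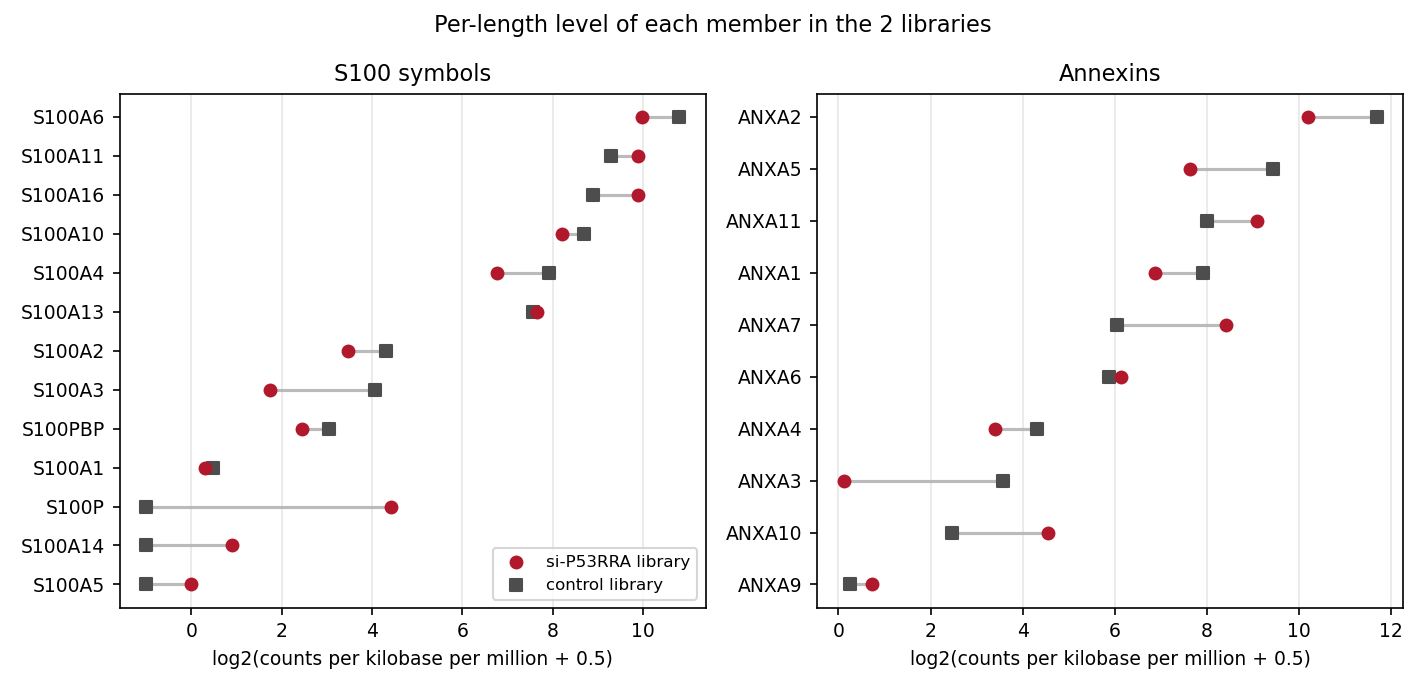
Per-length level of each S100 symbol (left) and annexin (right), as log2(per-length level + 0.5), in the si-P53RRA library (circles) and the control library (squares), ordered by the control library. S100P, S100A14 and S100A5 sit at the left edge in the control library, where they had 0 counts.

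All S100 genes with a row together, S100PBP left out, held 0.260% of the counts of the si-P53RRA library (0.257% to 0.263%, Wilson) and 0.294% of those of the control library (0.291% to 0.297%). The order of the leading genes per length differed. In the si-P53RRA library S100A6, S100A16 and S100A11 were near each other, with 28.5%, 26.7% and 26.7% of the summed S100 level. In the control library S100A6 led with 47.3%, before S100A11 with 16.7%, S100A16 with 12.5% and S100A10 with 11.1%. S100A4 made up 3.05% in the si-P53RRA library and 6.39% in the control library.

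Levels of known partners were set beside each other per length. S100A10 stood at a per-length level of 294.3 and ANXA2 at 1177 in the si-P53RRA library, or 0.250 S100A10 per ANXA2. In the control library they stood at 417.2 and 3295, or 0.127 S100A10 per ANXA2. The ratio was 1.98 times as high in the si-P53RRA library (1.90 to 2.06, Wald interval on the log scale). Both partners were lower there, ANXA2 by more. S100A11 per ANXA1 was 8.11 in the si-P53RRA library and 2.58 in the control library, 3.14 times as high (2.95 to 3.34). S100A6 per ANXA11 was 1.86 in the si-P53RRA library and 6.92 in the control library, 0.268 times as high (0.259 to 0.278). The ratio within a library rests on the transcript lengths chosen, while the comparison of the ratios between libraries does not. With the correction for transcripts, the differences in log2 change within the pairs were 0.44, 0.79 and −2.72 in place of 0.98, 1.65 and −1.90.

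The S100A genes lie together on chromosome 1q21, and neighbours within the cluster differed in direction. In chromosome order, S100A6, S100A4, S100A3 and S100A2 had log2 changes of −0.82, −1.15, −2.29 and −0.83. The next genes, S100A16, S100A14 and S100A13, had 1.00, 1.93 and 0.08. At the far end of the cluster S100A10 was at −0.50 and S100A11 at 0.59. The direction of S100A14 was fixed by the filter, and the counting interval of S100A13 includes a ratio of 1. With the correction for transcripts, S100A16 was at 0.54, S100A13 at −0.14 and S100A11 at −0.05. Of 31 other genes of the table that lie between or within 10 genes of the S100A genes, 19 passed the filter, none was higher and 3 were lower. The median of these 19 genes was −0.07. Of the 3 lower genes, THEM4 and HRNR passed through the control library alone, so their direction was fixed by the filter. THEM4, a thioesterase gene, was the nearest table row on the outer side of S100A10. It had 0 counts in the si-P53RRA library and 469 in the control library, at least 106-fold lower against a floor of 3 counts. TUFT1 was 2.34-fold lower (2.06 to 2.66). HRNR, a fused gene with an S100 domain, had 4 counts in the si-P53RRA library and 22 in the control library, 3.74-fold lower (1.27 to 14.9). HRNR and FLG, the filaggrin gene, were the 2 of 7 listed fused genes that passed the filter, with none higher, HRNR lower and a median of −0.13.

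**Figure D4:**
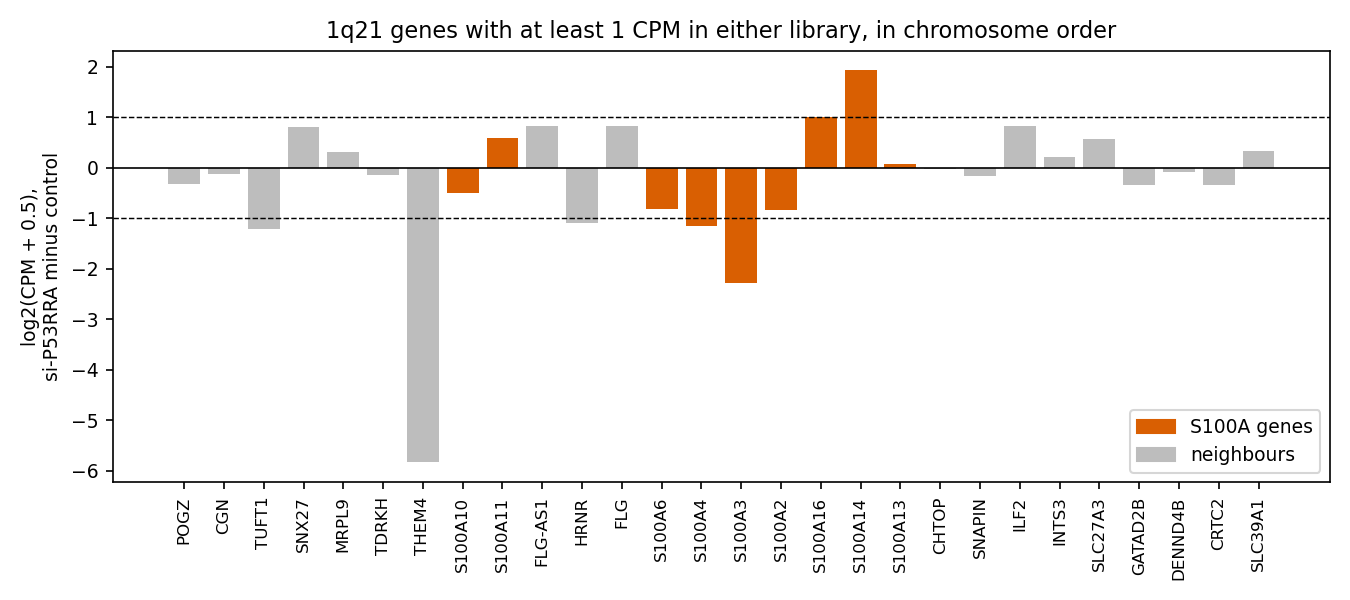
log2 change, si-P53RRA minus control, of the 1q21 genes that reached 1 CPM, in chromosome order with equal spacing, S100A genes in orange and other genes in grey. S100A6 to S100A2 lie below 0 and S100A16 to S100A13 above it, S100A13 at only 0.08, and THEM4 reaches −5.83.

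The windows around the starts of the genes, 250 bases before to 50 after, were taken from RefSeq on GRCh38.p14 for all 23 members, which had 34 such windows. Shown are windows of S100 and annexin genes picked for a motif that they hold, and not by the size of the difference. S100A2 was within 2-fold, and the called genes ANXA3, ANXA5 and ANXA10 are not shown. The windows set a CpG-poor start beside a CpG-rich one and show the activator protein motif TGACTCA, whose reverse complement is TGAGTCA. Capitals mark that motif in S100A3 (chr1:153549209-153549508, minus strand), S100A2 (chr1:153565795-153566094, minus strand) and ANXA2 (chr15:60397937-60398236, minus strand). They mark the TATA box TATAAA in S100P (chr4:6693628-6693927, plus strand) and the GC box GGGCGG, on either strand, in ANXA7 (chr10:73414009-73414308, minus strand).
S100A3: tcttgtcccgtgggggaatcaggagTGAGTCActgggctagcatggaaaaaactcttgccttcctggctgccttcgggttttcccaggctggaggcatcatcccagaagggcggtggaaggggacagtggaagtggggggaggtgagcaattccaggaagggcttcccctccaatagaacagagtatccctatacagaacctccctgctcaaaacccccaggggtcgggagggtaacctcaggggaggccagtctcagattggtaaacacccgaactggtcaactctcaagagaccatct
S100A2: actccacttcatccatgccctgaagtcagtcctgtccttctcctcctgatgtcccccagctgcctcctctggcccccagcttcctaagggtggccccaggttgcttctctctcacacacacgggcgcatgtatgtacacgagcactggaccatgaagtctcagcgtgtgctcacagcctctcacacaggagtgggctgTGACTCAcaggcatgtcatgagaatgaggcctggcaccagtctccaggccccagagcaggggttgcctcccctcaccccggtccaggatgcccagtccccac
ANXA2: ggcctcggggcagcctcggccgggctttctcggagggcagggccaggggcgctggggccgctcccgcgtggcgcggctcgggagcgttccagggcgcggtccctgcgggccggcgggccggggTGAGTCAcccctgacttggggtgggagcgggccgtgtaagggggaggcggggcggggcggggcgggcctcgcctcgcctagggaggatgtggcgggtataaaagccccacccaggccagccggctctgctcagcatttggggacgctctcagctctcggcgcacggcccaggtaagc
S100P: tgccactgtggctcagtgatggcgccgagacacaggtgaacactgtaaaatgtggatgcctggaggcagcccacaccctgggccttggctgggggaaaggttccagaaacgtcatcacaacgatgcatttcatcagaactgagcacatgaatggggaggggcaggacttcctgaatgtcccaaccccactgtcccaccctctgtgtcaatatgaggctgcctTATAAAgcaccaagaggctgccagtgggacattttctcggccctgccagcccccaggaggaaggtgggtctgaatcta
ANXA7: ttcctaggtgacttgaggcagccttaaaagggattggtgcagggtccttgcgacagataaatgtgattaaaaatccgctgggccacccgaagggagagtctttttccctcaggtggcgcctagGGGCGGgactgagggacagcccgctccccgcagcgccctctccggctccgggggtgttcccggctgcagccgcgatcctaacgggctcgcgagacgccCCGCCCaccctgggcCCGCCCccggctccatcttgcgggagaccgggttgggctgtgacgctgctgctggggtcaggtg

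The TGACTCA motif was found on either strand in 5 of the 34 member windows, and in 4.95% of all 35116 windows. The genes were ANXA2, S100A2, S100A3, S100A5 and S100PBP. Of these, ANXA2, S100A2, S100A3 and S100PBP had log2 changes of −1.49, −0.83, −2.29 and −0.62, and S100A5, under the filter, had 4 counts in the si-P53RRA library and 0 in the control library. Over all tested genes 51.9% had a log2 change below 0, and the changes of all genes with the motif were not compared. S100A2, S100A5 and S100PBP also have windows without the motif. In S100A3 the match began 225 bases before the start, in ANXA2 127 bases and in S100A2 52 bases before it. The TATAAA match of S100P began 28 bases before the start, and this motif was in 7 of the 34 member windows and in 11.5% of all windows. GGGCGG was in 15 of the member windows and in 45.0% of all, CCAAT in 9 and in 34.6%, and CAGGTG in 12 and in 20.6%, each on either strand. No match of one motif overlapped a match of another in the member windows. A match is a description of letters and not a site of binding.

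The starts were of CpG-poor and CpG-rich kinds, scored as the observed over the expected number of CpG pairs. S100P scored 0.213 and S100A3 0.212, against 0.762 for ANXA2 and 0.705 for ANXA7. Of the 9 tested members with all windows under 0.6, 3 were higher and 3 lower, beside 29.1% higher and 33.3% lower, together 62.5%, among all genes of that kind. Of the 12 members with a window at 0.6 or more, 2 were higher and 3 lower, beside 17.2% and 21.4%, together 38.6%, among all such genes. S100A2, S100A3, S100A4, S100A14, S100A16, S100P, ANXA1, ANXA9 and ANXA10 made up the CpG-poor kind, and S100A6, S100A10, S100A11 and S100A13 were CpG-rich with most annexins.

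Receptors and partners of the families were compared as lists. Of 10 receptors and extracellular partners, 5 passed the filter, 1 of them higher and 2 lower, and the median was −0.77. BSG, or basigin, a surface receptor of S100A9, was 2.22-fold higher (2.17 to 2.28). PLAT, the tissue plasminogen activator that the ANXA2 complex binds at the cell surface, was 12.1-fold lower (10.8 to 13.6), and the adhesion gene ALCAM was 7.07-fold lower (6.53 to 7.67). Of 17 membrane repair and binding partner genes, 15 passed, with 1 higher, 4 lower and a median of −0.17. DYSF, the membrane repair protein dysferlin, had 1 count in the si-P53RRA library and 83 counts in the control library, 56.4-fold lower (9.85 to 2255). It passed the filter through the control library alone, so its direction was fixed by the filter. EHD2, a membrane-shaping ATPase of caveolae, was 5.76-fold lower (5.36 to 6.19) and the calpain subunit CAPN2 2.79-fold lower (2.71 to 2.87). AHNAK, the giant scaffold that binds the S100A10 and ANXA2 complex, and SYT7, a synaptotagmin of lysosome fusion, were named after their values were seen. AHNAK had 7397 counts in the si-P53RRA library and 28999 in the control library, 2.67-fold lower (2.60 to 2.73), and SYT7 was 2.75-fold higher (2.42 to 3.12). PDCD6, the EF-hand partner of ANXA7 and ANXA11, had 1645 counts in the si-P53RRA library and 2265 in the control library, a ratio of 1.07 (1.00 to 1.14), and was also named after its values were seen.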

How the data were processed

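The authors deposited raw whole-number counts per gene, since column totals differ and no value has a fraction. Reads were mapped to hg19, per the submitters' processing notes, from poly(A)-selected RNA copied with random hexamers, per the labels' protocols. Aligner, counter, annotation and strandedness: not given in the sources used here. Antisense reads therefore cannot be told from sense ones. The column named si-P53RRA was matched to the sample of that title, and the column named for a negative control to the control group. The table held 25 rows named like dates, kept in totals.

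Libraries were scaled by the trimmed mean of M-values (edgeR 4.0.16, R 4.3.3), with DESeq2 1.42.0 for median-ratio scaling, both on counts, with no test. A pseudocount of 0.5 CPM and a minimum of 1 CPM in either library were used. Intervals were exact Poisson and conditional binomial at 95%, and a library at 0 was set at 3 counts, 0.263 CPM in the si-P53RRA library and 0.179 CPM in the control library. Fold values given as "at least" rest on this floor and are not limits of an exact interval, which for a count of 0 reaches 3.69 counts. PCR copies carry no molecular identifiers, so intervals and floors reflect counting alone. Lengths came from GENCODE 29: the shortest principal transcript of best support, or the median coding transcript for ANXA7. Of all tested genes, 89.9% had one. Gene order came from GRCh38.p14, so no gene coordinates are given. Of the 23 members, 16 share no 50-base stretch with another gene's transcripts.

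Named were the members that reached 1 CPM, and per list up to 3 genes with the largest difference of at least 2-fold, or 2 where there was none. The list genes KRT8, KRT18, CDH1, EPCAM, DCN, FLG and PTPRC were named outside this rule. The members and the 12 gene lists were chosen with earlier results of these data known, and the motifs and CpG kinds after the values were seen. Some genes of these lists, and 1 whole list, are not reported here. The procedure was also run on simulated counts with counting error alone and few changed genes. That run cannot vouch for scaling or calls in libraries that differ as widely as these. Alternatives changed scaling, filter, pseudocount, size of change, near copies and S100PBP. A cubic surface in GC content and length of the longest transcript was the correction used. Setting genes at 0 at their bound was added after the data were seen.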

Additional observations from a re-analysis of the deposited data

How the results depend on the processing

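Counts of S100 symbols were small and moved with the settings. With at least 5 CPM required or a pseudocount of 2.5 CPM, 1 was higher in place of 2. At 1.5-fold, 4 were higher and 5 lower, and at 4-fold 1 was higher and 1 lower. Of all 13532 tested genes, 3955 were higher and 4424 lower at 1.5-fold. With the correction for transcript GC content and length, 4 S100 symbols were lower in place of 2. At 4-fold, 1 annexin was lower in place of 4, and 1129 of all genes were higher and 1400 lower in place of 2667 and 3135. The median of the S100 symbols stayed below 0 in the settings run, between −0.63 and −0.14, and that of the annexins between −0.93 and −0.21. Of 168 recomputed values of 21 members, 3 had the other sign, for S100A11 and S100A13, and 7 crossed the 2-fold line, all named in the results except ANXA4, at −1.06 on total counts. Scaling on total counts put the median of all genes at −0.18. Of 107 recomputed medians of the 12 gene lists, 5 had the other sign. No called value changed sign. The cause of these shifts was not tested. No paired analysis was possible because each group has 1 library. Depth limits S100A1, S100A5 and S100A14, each at 16 counts or fewer in both libraries.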

Other observations

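Other calcium-binding families also went both ways between these libraries. Of 25 listed EF-hand genes outside the S100 family, 19 passed the filter, with 1 higher, 5 lower and a median log2 change of −0.09. CALM3, a calmodulin gene, was 2.19-fold lower (2.10 to 2.29). CALU, or calumenin, a calcium-binding protein of the secretory pathway, was 4.02-fold lower (3.86 to 4.20), and NUCB2, the nucleobindin gene, 4.00-fold lower (3.36 to 4.78). The reticulocalbin genes RCN1 and RCN3, whose products lie in the endoplasmic reticulum, were 2.10-fold (2.00 to 2.21) and 2.45-fold lower (2.24 to 2.67). CALM3, RCN1 and RCN3 were named after their values were seen. Of 14 listed genes with C2 domains, which bind calcium and lipids as annexins do but with another fold, 10 passed, with 3 higher, 1 lower and a median of 0.44. ESYT3, a membrane tether, had 83 counts in the si-P53RRA library and 2 in the control library, a ratio of 61.0 (16.4 to 512.4). It passed the filter through the si-P53RRA library alone, so its direction was fixed by the filter. The copine CPNE7 was 3.22-fold higher (2.72 to 3.82) and CPNE2 3.78-fold lower (3.12 to 4.62). CPNE8, named after its values were seen, was 2.11-fold higher (1.66 to 2.68).

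Few markers of other cell types that can carry S100 genes passed the filter. Of 12 squamous keratinocyte markers, KRT10 alone passed the filter, with 305 counts in the si-P53RRA library, 768 in the control library and a log2 change of −0.76, and the 5 with a row summed to 26.9 CPM in the si-P53RRA library and 46.5 CPM in the control library. Of 9 myeloid markers, 2 passed, with a median of 1.36, and the 5 with a row summed to 79.8 CPM in the si-P53RRA library and 40.7 CPM in the control library. CD68, a lysosomal gene named after its values were seen, had 889 counts in the si-P53RRA library and 667 in the control library, a log2 change of 0.96. LYZ, which passed through the si-P53RRA library alone, had 16 counts in the si-P53RRA library and 1 in the control library, a ratio of 23.5 (3.66 to 986.9). PTPRC, under the filter, had 0 counts in the si-P53RRA library and 2 in the control library. Of 8 melanocyte or glial markers, 2 passed, with a median of −0.93, and ERBB3 was 2.77-fold lower (1.52 to 5.38). ANXA2R, a gene described as a receptor for annexin A2 and taken by no list, had 113 counts in the si-P53RRA library and 36 in the control library, 4.62-fold higher (3.15 to 6.92), and was named after its values were seen.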
